A study of Mus musculus with 9 samples.

Results

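The lung genes described here are those whose symbols begin with Galnt, C1galt, Gcnt, B3gnt, B4galt, B3galt, Fut, St3gal, St6gal, St6galnac, St8sia or Chst and a number. These are the enzymes that start, extend, branch, fucosylate, sialylate and sulfate the sugar chains of mucins, of other glycoproteins and of glycolipids. The rule used names only and no measured value, and it found 91 of the 34638 entries of the table, under 90 symbols. RNA of whole lung from 9 wild-type (WT) C57BL/6 mice was sequenced, with 3 mice in each of 3 groups. Control mice were challenged with PBS. IL-33 mice received 0.5 µg of recombinant mouse IL-33 into the trachea daily from day 0 to day 3. IL-33+LM8 mice received the same IL-33 after 10 mg/kg of the MyD88 inhibitor LM8, injected into the peritoneum. The study's methods for the IL-33 model give female mice of 6 to 8 weeks and tissue taken 24 h after the last challenge. They do not describe the LM8 group, whose dose and route are known here from the series' design text, and no group received LM8 without IL-33. MyD88 is the adaptor through which the IL-33 receptor signals. The 3 comparisons ask how transcript levels of these enzymes change with IL-33 and how they differ when the inhibitor LM8 is added. They also ask what difference from control mice is then left. Whether LM8 inhibited MyD88 in these lungs was not tested.

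Mucin-type O-glycans are built in the Golgi one sugar at a time. Galnt enzymes place N-acetylgalactosamine on serine or threonine, C1galt1 with its chaperone C1galt1c1 adds galactose to make the core 1 structure, Gcnt enzymes branch it, and B3gnt and B4galt enzymes lengthen the chain before fucose, sialic acid or sulfate is added. Airway mucus owes much of its bulk to these glycans, and sialylated, fucosylated and sulfated end groups serve as selectin ligands on leukocytes and vessels. The name of the group fits most but not all of its members. The 14 Chst entries encode sulfotransferases and not glycosyltransferases, several members act on glycolipids or proteoglycans, and 3 of the 91 entries are non-coding (Fut4-ps1, Galnt6os and St8sia3os). St6galnac2 is listed under 2 gene identifiers that overlap on the same strand, so reads could be split between them.

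The 9 libraries held between 53877663 and 90607218 counts on genes. In all, 63 members had a mean of at least 0.5 FPKM (fragments scaled by gene length and library size) over the 9 mice and entered the tests, and 28 members lay below this filter. The filter takes all 9 mice together, so a gene low in control mice, such as St8sia1, can pass it through the challenged mice alone. The test was the quasi-likelihood test of edgeR on the counts of the 6 mice of each comparison, with p-values adjusted over all genes by the Benjamini-Hochberg method. The words rose and fell stand for an adjusted p under 0.05. An exact permutation test of 3 against 3 mice cannot give a two-sided p below 0.1. Levels are in FPKM, fold changes are from the counts on the log2 scale with their standard error (SE), and in whole lung fewer cells of a type and less RNA per cell cannot be told apart.

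IL-33 moved the enzymes in both directions. Of the 63 members tested, 24 rose in IL-33 mice, where 27.4% of all genes rose, and 14 fell, where 27.2% of all genes fell. With a log2 fold change of at least 1 in size, 8 members rose (10.8% of all genes) and 5 fell (6.24% of all genes). The median log2 fold change was 0.14 over the members and -0.0053 over all genes tested. The share of each library's counts that fell on the 91 entries was 0.243% to 0.248% in control mice, 0.266% to 0.271% in IL-33 mice and 0.254% to 0.262% in IL-33+LM8 mice, so the 3 ranges did not overlap. In IL-33+LM8 mice compared with IL-33 mice, 7 members were higher, where 12.6% of all genes were higher, and 17 were lower, where 13.9% of all genes were lower. At a log2 fold change of at least 1 in size these were 1 member (1.46% of all genes) and 2 members (3.93% of all genes). The count of 17 was 11 when IL-33 replicate 3 was left out, and the count over all genes then went from 2339 to 1577. In IL-33+LM8 mice compared with control mice, 13 members were higher (16.3% of all genes) and 5 lower (13.4% of all genes), and with the minimum fold 2 were higher (5.87% of all genes) and 3 lower (1.46% of all genes). The first and last comparisons share the control mice and the first and second share the IL-33 mice, so each comparison's values are set side by side below and no overlap between them is read.

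**Figure D1:**
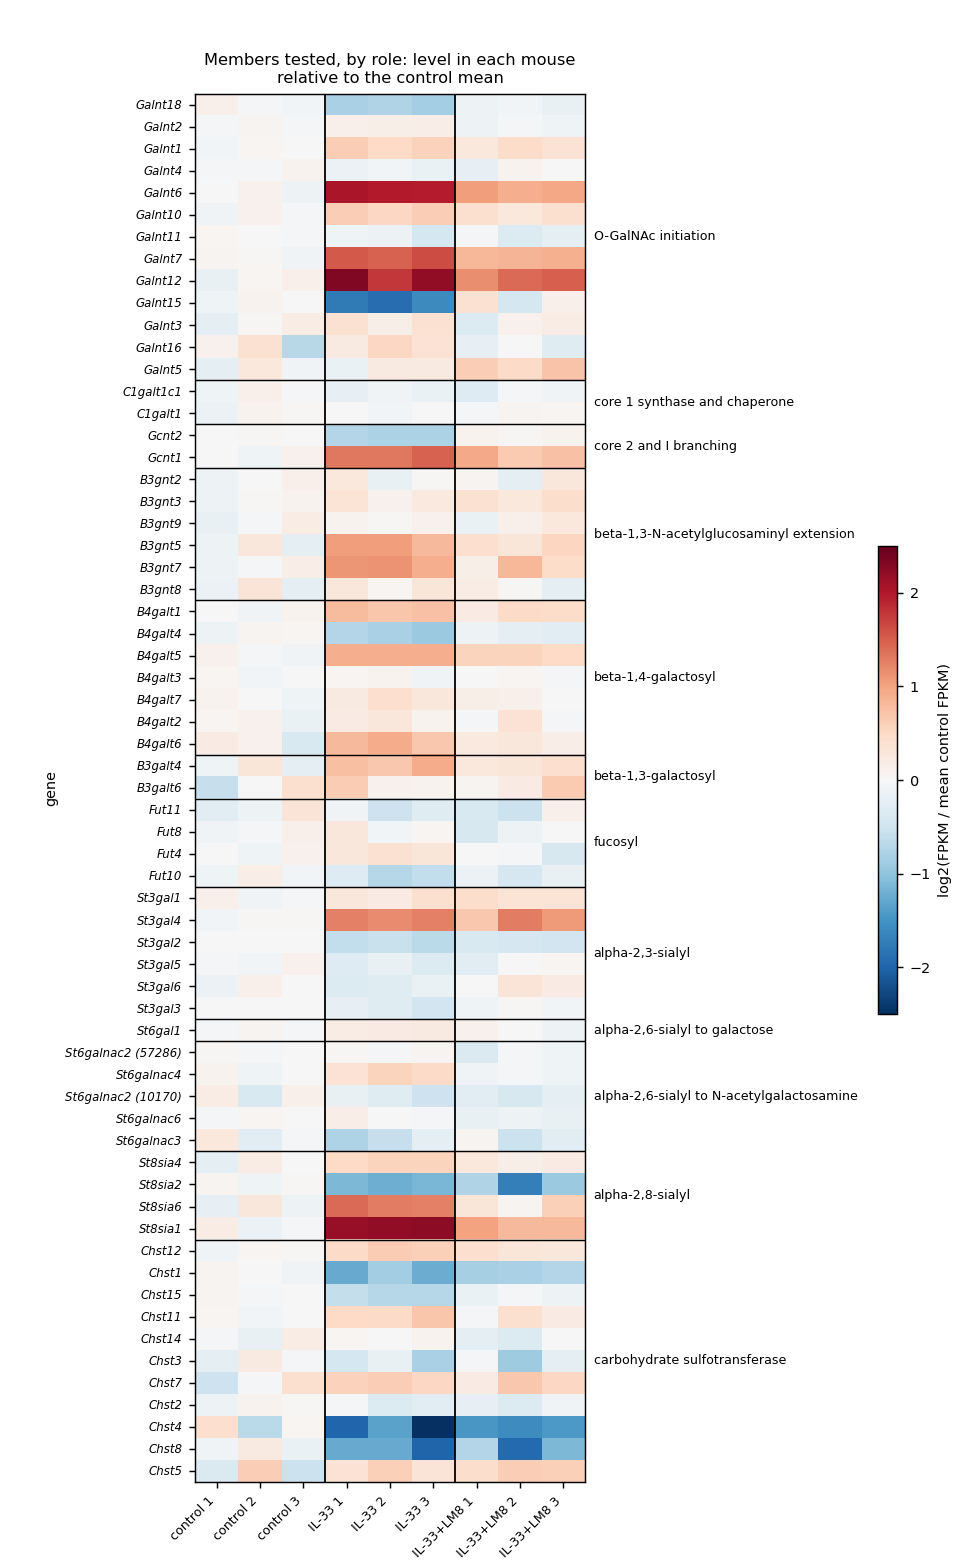
Level of each of the 63 tested members (rows, grouped by role) in each of the 9 mice (columns), as log2 of FPKM over the mean FPKM of the 3 control mice (red above, blue below). St8sia1, Galnt12 and Galnt6 are the darkest red in the 3 IL-33 mice, Chst4, Galnt15 and Chst8 the darkest blue, and the rows of Galnt6, Galnt7, Galnt18 and Gcnt2 are paler in IL-33+LM8 than in IL-33 mice.

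Upstream sequences were taken from RefSeq (GRCm38.p6) for 3 members on which the results below turn. Among the 63 tested members St8sia1 had the largest rise with IL-33 and Galnt15 the largest log2 fold change for IL-33+LM8 against IL-33 mice. Among the tested members with an upstream window, Gcnt1 was the one with matches to a STAT6-type motif, at 1 of its 3 annotated starts. This motif was chosen because STAT6 carries the signal of the type 2 cytokines that follow IL-33. Each run is the 250 bases before an annotated start, 5′ to 3′, for that start of Gcnt1 and the single one of the others. Capitals mark matches on either strand to TTCNNNNGAA (STAT6-type), CCAAT or GGGCGG (a GC box).
Gcnt1 (chr19:17356668-17356917, minus strand): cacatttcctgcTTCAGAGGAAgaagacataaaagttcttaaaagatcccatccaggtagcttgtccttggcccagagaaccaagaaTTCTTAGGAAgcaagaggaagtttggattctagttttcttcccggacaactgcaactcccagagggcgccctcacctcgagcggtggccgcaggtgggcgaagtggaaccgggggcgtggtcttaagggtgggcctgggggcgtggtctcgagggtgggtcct
St8sia1 (chr6:142964453-142964702, minus strand): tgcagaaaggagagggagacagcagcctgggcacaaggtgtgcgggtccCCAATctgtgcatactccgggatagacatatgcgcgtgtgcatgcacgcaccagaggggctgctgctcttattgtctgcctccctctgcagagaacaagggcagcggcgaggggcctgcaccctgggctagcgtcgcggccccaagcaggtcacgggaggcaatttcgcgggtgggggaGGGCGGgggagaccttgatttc
Galnt15 (chr14:32028853-32029102, plus strand): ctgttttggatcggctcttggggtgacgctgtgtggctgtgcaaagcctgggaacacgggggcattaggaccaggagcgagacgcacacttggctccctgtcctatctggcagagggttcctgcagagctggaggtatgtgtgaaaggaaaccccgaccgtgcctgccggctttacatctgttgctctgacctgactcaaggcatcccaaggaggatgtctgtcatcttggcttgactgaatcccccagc
The STAT6-type letters occurred 2 times in the Gcnt1 window, beginning 238 and 163 bases before the start, and not in the other 2 windows. Of the member symbols, 66 of 90 had such a window, with 87 windows in all. Tested members such as Galnt12 and Galnt18 had none and could not be searched. The STAT6-type letters were in 2 of the 87 (2.30%; the other was at a start of Galnt9, which lay below the filter) and in 5.85% of all 32851 windows. GGGCGG was in 54.0% of the members' windows and 32.7% of all, CCAAT in 31.0% and 33.9%, and TATAAA in 1.15% and 12.4%. These are counts of letters and not of bound sites.

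The Galnt family, which starts O-glycosylation, held both the most abundant member and some of the largest changes. Of 13 tested genes, 6 rose with IL-33 (27.4% of all genes rose), 2 fell (27.2% of all genes fell) and 5 did not pass the test. Galnt6 (ENSMUSG00000037280) was at 3.07, 3.28 and 2.77 FPKM in the 3 control mice, 12.4, 12 and 11.9 in the IL-33 mice and 6.27, 5.7 and 5.96 in the IL-33+LM8 mice. The 3 groups did not overlap, and LM8 mice lay between the others. Its log2 fold change was 1.99 (SE 0.08) in IL-33 against control mice (adjusted p = 3.0e-06, edgeR, Benjamini-Hochberg, as for all adjusted p-values below). It was -1.02 (SE 0.06) with LM8 relative to IL-33 alone (adjusted p = 1.0e-04), and relative to control mice 0.99 (SE 0.10) (adjusted p = 6.1e-04). Galnt12 (ENSMUSG00000039774) was at 1.35, 1.59 and 1.69 FPKM in control mice, 7.73, 5.26 and 7.18 in IL-33 mice and 3.48, 4.14 and 4.34 in IL-33+LM8 mice. It rose by 2.12 (SE 0.18) with IL-33 (adjusted p = 5.9e-05) and was lower with LM8, by -0.75 (SE 0.17) (adjusted p = 0.014). That second call was lost when IL-33 replicate 1 or replicate 3 was left out. Galnt12 stayed above control mice in all 3 LM8 mice, with a log2 fold change of 1.38 (SE 0.16) (adjusted p = 9.4e-04).

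Galnt7 (ENSMUSG00000031608), which prefers substrates that already carry N-acetylgalactosamine, was at 2.5, 2.44 and 2.24 FPKM in control mice, 6.91, 6.63 and 7.41 in IL-33 mice and 4.26, 4.34 and 4.45 in IL-33+LM8 mice. The 3 groups again did not overlap. Its log2 fold changes were 1.54 (SE 0.09), -0.68 (SE 0.07) and 0.88 (SE 0.09) in IL-33 against control, IL-33+LM8 against IL-33 and IL-33+LM8 against control mice (adjusted p = 9.5e-06, 6.2e-04 and 6.8e-04). Galnt1 was at 20.5, 22.2 and 21.7 FPKM in control mice, 33.1, 30.3 and 31.9 in IL-33 mice and 25.8, 29.4 and 27.8 in IL-33+LM8 mice. Galnt10, with the same preference as Galnt7, and the widely expressed Galnt1 rose with IL-33 by 0.58 and 0.56 (adjusted p = 5.7e-04 and 8.2e-05). Both stayed above control mice with LM8, by 0.37 and 0.38 (adjusted p = 0.016 and 0.0059), and neither passed the test between IL-33+LM8 and IL-33 mice (adjusted p = 0.053 and 0.062). Galnt2, another widely expressed family member, was at 29.9, 32.5 and 30.4 FPKM in control mice, 33.6, 34.2 and 34.5 in IL-33 mice and 28.4, 29.7 and 28.6 in IL-33+LM8 mice. Its rise with IL-33 was 0.14 (SE 0.05) (adjusted p = 0.041), the smallest among the members that passed the test. It was lower with LM8 than without it, by -0.24 (SE 0.05) (adjusted p = 0.0088).

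Galnt18 and Galnt15 moved the other way. Galnt18 (ENSMUSG00000038296) had the highest mean level of all 91 entries, 55.7 FPKM. It was at 73.1, 64.8 and 63.6 FPKM in control mice, 38.2, 39.6 and 37.4 in IL-33 mice and 61.8, 64.2 and 59 in IL-33+LM8 mice. All 3 IL-33 mice lay below the 6 others. The log2 fold change was -0.81 (SE 0.07) with IL-33 (adjusted p = 6.4e-05) and 0.68 (SE 0.05) for IL-33+LM8 against IL-33 mice (adjusted p = 2.1e-04). Between IL-33+LM8 and control mice it was -0.11, with a 95% confidence interval of -0.29 to 0.07 (adjusted p = 0.33). Galnt15 (ENSMUSG00000021903) was at 4.24, 4.9 and 4.6 FPKM in control mice, 1.34, 1.23 and 1.52 in IL-33 mice and 5.92, 3.37 and 5.0 in IL-33+LM8 mice. The IL-33 mice were again the lowest, and the control and LM8 mice overlapped. It fell by 1.75 (SE 0.11) on the log2 scale with IL-33 (adjusted p = 1.6e-05) and was higher by 1.80 (SE 0.20) with LM8 (adjusted p = 8.1e-04). Its difference from control mice with LM8 was 0.07, with a 95% confidence interval of -0.37 to 0.51. Galnt16, a low member, passed the test for IL-33+LM8 against IL-33 mice and in no other comparison, with a log2 fold change of -0.54 (SE 0.15) (adjusted p = 0.038). Galnt3, Galnt4, Galnt5 and Galnt11 passed in no comparison.

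The core 1 step did not pass the test in any comparison. C1galt1 (ENSMUSG00000042460), the core 1 synthase, was at 10.9, 12.8 and 12.2 FPKM in control mice, 12, 11.4 and 12.1 in IL-33 mice and 11.8, 12.6 and 12.4 in IL-33+LM8 mice. Its log2 fold changes had 95% confidence intervals of -0.17 to 0.13 in IL-33 against control, -0.08 to 0.18 in IL-33+LM8 against IL-33 and -0.11 to 0.21 in IL-33+LM8 against control mice. C1galt1c1 (ENSMUSG00000048970), the chaperone that C1galt1 needs in order to fold, was at 25.5, 30.3 and 27 FPKM in control mice, 23.8, 25.9 and 24.5 in IL-33 mice and 22, 27.2 and 26 in IL-33+LM8 mice, and its intervals were -0.34 to 0.03, -0.21 to 0.25 and -0.37 to 0.12. Their groups overlapped in each comparison, and no bound of these intervals was farther from 0 than the -0.37 of C1galt1c1 in IL-33+LM8 against control mice.

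The branching enzymes Gcnt1 and Gcnt2 changed in opposite directions. Gcnt1 (ENSMUSG00000038843), which turns core 1 into core 2 and whose upstream sequence is printed above, was at 1.63, 1.5 and 1.75 FPKM in control mice, 4.08, 4.05 and 4.54 in IL-33 mice and 3.12, 2.56 and 2.71 in IL-33+LM8 mice. The groups did not overlap. It rose by 1.37 (SE 0.10) with IL-33 (adjusted p = 3.2e-05), was lower with LM8 by -0.60 (SE 0.10) (adjusted p = 0.0047) and was above control mice by 0.79 (SE 0.12) (adjusted p = 0.0029). Gcnt2, which makes the branched I antigen on lactosamine chains, was at 12.4, 12.8 and 12.4 FPKM in control mice, 7.58, 7.22 and 7.25 in IL-33 mice and 13.3, 12.8 and 13.3 in IL-33+LM8 mice. The 3 IL-33 mice were the lowest. Its log2 fold change was -0.77 (SE 0.04) with IL-33 (adjusted p = 1.1e-05) and 0.84 (SE 0.05) for IL-33+LM8 against IL-33 mice (adjusted p = 8.1e-05). Between LM8 and control mice the 95% confidence interval was -0.03 to 0.20.

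The chain-extending enzymes moved in both directions with IL-33. Of the 6 tested B3gnt genes 2 rose and 0 fell, and of the 7 tested B4galt genes 4 rose and 1 fell. Of all genes 27.4% rose and 27.2% fell. B4galt1 (ENSMUSG00000028413), which adds galactose to make lactosamine, was the second most abundant member. It was at 30.6, 28.9 and 32.6 FPKM in control mice, 53.4, 49.4 and 50.7 in IL-33 mice and 35.2, 43 and 42.3 in IL-33+LM8 mice, with LM8 mice between the other groups. It rose by 0.74 (SE 0.06) with IL-33 (adjusted p = 4.6e-05) and differed with LM8 by -0.35 (SE 0.09) from IL-33 mice (adjusted p = 0.022) and by 0.40 (SE 0.09) from control mice (adjusted p = 0.017). The difference from IL-33 mice did not pass the test with the replicate number as a block (adjusted p = 0.053). The lactosylceramide synthases B4galt5 and B4galt6 rose by 0.90 and 0.81 with IL-33 (adjusted p = 3.8e-05 and 0.0061) and were lower with LM8, by -0.37 and -0.58 (adjusted p = 0.0022 and 0.0072). B4galt5 was above control mice with LM8, by 0.55 (adjusted p = 0.0024). B4galt7, of the proteoglycan linker, rose by 0.31 (adjusted p = 0.036). B4galt4 moved in the opposite direction, from 20.6, 23.7 and 23.5 FPKM in control mice to 13.5, 12.8 and 11.9 in IL-33 mice and 20.5, 19.2 and 18.8 in IL-33+LM8 mice. It was lower with IL-33, with a log2 fold change of -0.83 (SE 0.07) (adjusted p = 8.1e-05), and higher with LM8 than with IL-33 alone, by 0.62 (SE 0.07) (adjusted p = 7.7e-04).

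B3gnt7 (ENSMUSG00000079445), which extends keratan sulfate chains, was at 1.27, 1.34 and 1.55 FPKM in control mice, 2.97, 3.03 and 2.61 in IL-33 mice and 1.53, 2.46 and 1.91 in IL-33+LM8 mice. It rose by 1.04 (SE 0.13) with IL-33 (adjusted p = 3.7e-04). The LM8 mice overlapped the control mice, and neither comparison with LM8 passed the test (adjusted p = 0.069 against IL-33 and 0.09 against control mice). B3gnt5, which starts the lacto-series glycolipids, rose by 0.97 (SE 0.16) with IL-33 (adjusted p = 0.0015) and was lower with LM8 by -0.55 (SE 0.11) (adjusted p = 0.0085). B3gnt3, which extends core 1, passed the test in IL-33+LM8 against control mice, with 0.38 (SE 0.08) (adjusted p = 0.013), and just missed it with IL-33 alone (0.23, adjusted p = 0.051). B3gnt2, B3gnt8 and B3gnt9 passed in no comparison. Of the 2 tested B3galt genes, B3galt4, an enzyme of ganglioside synthesis, rose with IL-33 by 0.79 (SE 0.18) (adjusted p = 0.0084) and was lower with LM8 by -0.46 (SE 0.13) (adjusted p = 0.041), while B3galt6 passed in no comparison.

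Few fucosyltransferases passed the filter, and their differences were small. Fut4, which makes Lewis x structures, was at 2.17, 2.02 and 2.36 FPKM in control mice, 2.65, 2.86 and 2.69 in IL-33 mice and 2.15, 2.11 and 1.66 in IL-33+LM8 mice. The IL-33 mice were the highest. It rose by 0.32 (SE 0.11) with IL-33 (adjusted p = 0.039) and was lower with LM8 by -0.47 (SE 0.14) (adjusted p = 0.039). Neither difference passed the test with the replicate number as a block (adjusted p = 0.088 and 0.072). Fut10 fell by 0.54 (SE 0.14) on the log2 scale with IL-33 (adjusted p = 0.015). Fut8, which adds core fucose to N-glycans, and Fut11 passed in no comparison.

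The alpha-2,3-sialyltransferases changed in both directions. Of 6 tested St3gal genes, which add sialic acid to galactose, 2 rose and 4 fell with IL-33. Of all genes 27.4% rose and 27.2% fell. St3gal4 (ENSMUSG00000032038), an enzyme of sialyl Lewis x synthesis, was at 13.7, 14.6 and 14.6 FPKM in control mice, 34.4, 32.6 and 34.2 in IL-33 mice and 22.8, 34.5 and 30.1 in IL-33+LM8 mice. It rose by 1.24 (SE 0.05) with IL-33 (adjusted p = 2.5e-06). With LM8 the level spread widely and overlapped the IL-33 mice, and the difference from them had a 95% confidence interval of -0.54 to 0.11 (adjusted p = 0.32). All 3 LM8 mice lay above the control mice, with a log2 fold change of 1.04 (SE 0.14) (adjusted p = 0.002). St3gal1, which sialylates core 1, was at 25.8, 22.4 and 22.8 FPKM in control mice, 28.9, 27.1 and 31.1 in IL-33 mice and 32.1, 29.8 and 30.2 in IL-33+LM8 mice. It rose by 0.29 (SE 0.08) with IL-33 (adjusted p = 0.017) and was above control mice by 0.39 (SE 0.08) with LM8 (adjusted p = 0.0095). St3gal2, which acts on the same core, fell with IL-33, with a log2 fold change of -0.61 (SE 0.05) (adjusted p = 4.0e-05), was higher with LM8 than with IL-33 alone (0.19, adjusted p = 0.045), and was below control mice with LM8 (-0.41, adjusted p = 0.0016). St3gal3, St3gal5 (the GM3 synthase) and St3gal6 were lower with IL-33 by -0.32, -0.29 and -0.27 (adjusted p = 0.023, 0.02 and 0.026). Of these 3, St3gal6 was higher in IL-33+LM8 than in IL-33 mice, by 0.46 (adjusted p = 0.014).

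The alpha-2,6-sialyltransferases moved little. St6gal1, which caps N-glycans, rose by 0.21 (SE 0.05) with IL-33 (adjusted p = 0.0098). St6galnac4, which completes disialylated core 1, rose by 0.46 (SE 0.08) with IL-33 (adjusted p = 0.0027) and was lower with LM8 by -0.54 (SE 0.07) (adjusted p = 0.0018). The 2 entries of St6galnac2, St6galnac3 and St6galnac6 passed in no comparison.

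The alpha-2,8-sialyltransferases, which lengthen sialic acid chains, held the largest rise with IL-33 among the 63 members that passed the filter. St8sia1 (ENSMUSG00000030283), the GD3 ganglioside synthase, was at 0.44, 0.348 and 0.374 FPKM in control mice, 1.76, 1.8 and 1.82 in IL-33 mice and 0.774, 0.682 and 0.68 in IL-33+LM8 mice. The 3 groups did not overlap. It rose by 2.20 (SE 0.13) with IL-33 (adjusted p = 1.1e-05), to a mean FPKM 4.62 times that of control mice. With LM8 it was lower than with IL-33 alone, by -1.33 (SE 0.10) (adjusted p = 1.9e-04), and above control mice by 0.89 (SE 0.16) (adjusted p = 0.0068). St8sia6, which acts on O-glycans, was at 0.835, 1.16 and 0.882 FPKM in control mice, 2.56, 2.33 and 2.28 in IL-33 mice and 1.18, 1.01 and 1.45 in IL-33+LM8 mice. It rose by 1.32 (SE 0.14) with IL-33 (adjusted p = 2.2e-04) and was lower with LM8 by -0.98 (SE 0.14) (adjusted p = 0.0023). The polysialyltransferases St8sia2 and St8sia4 moved in opposite directions with IL-33. St8sia2 (ENSMUSG00000025789) was at 3.09, 2.73 and 3.01 FPKM in control mice, 1.35, 1.27 and 1.33 in IL-33 mice and 1.74, 0.899 and 1.55 in IL-33+LM8 mice. Both challenged groups lay below the control mice, with log2 fold changes of -1.16 (SE 0.10) for IL-33 (adjusted p = 7.2e-05) and -1.06 (SE 0.23) for IL-33+LM8 (adjusted p = 0.014). Between these 2 groups the 95% confidence interval was -0.46 to 0.63. St8sia4 rose with IL-33 by 0.54 (SE 0.10) (adjusted p = 0.0035) and was lower with LM8 by -0.33 (SE 0.06) (adjusted p = 0.0058).

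**Figure D2:**
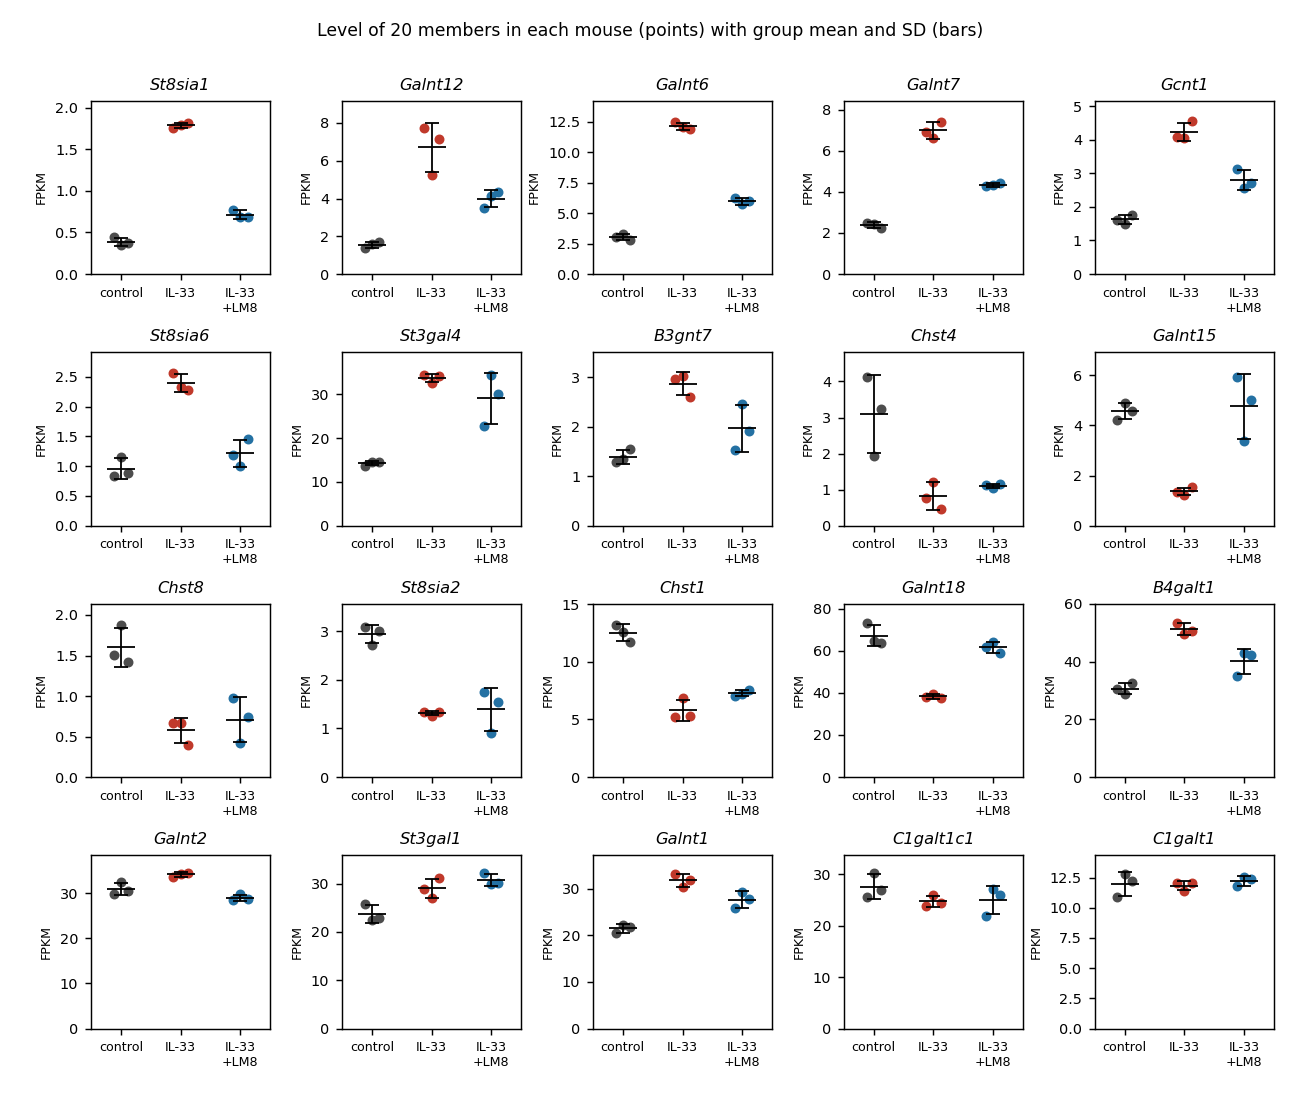
FPKM (vertical axis, from 0) of 20 members in each mouse (points) of the control, IL-33 and IL-33+LM8 groups, with the group mean and SD as bars (n = 3). LM8 mice lie between the other groups for Galnt6, Galnt7, Galnt12, Gcnt1 and St8sia1, near the control mice for Galnt15 and Galnt18, and near the IL-33 mice for Chst4, Chst8, St8sia2 and St3gal4.

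The sulfotransferases included 3 of the 5 tested members that fell by at least 1 on the log2 scale with IL-33. These were 3 of 11 tested Chst genes, where 6.24% of all genes fell as far. Without the minimum fold, 2 of the 11 rose and 4 fell, where 27.4% of all genes rose and 27.2% fell. Chst4 (ENSMUSG00000035930), which sulfates N-acetylglucosamine in L-selectin ligands and mucins, was at 4.12, 1.94 and 3.22 FPKM in control mice, 0.779, 1.22 and 0.448 in IL-33 mice and 1.13, 1.05 and 1.14 in IL-33+LM8 mice. Its control mice spread widely, but all 3 lay above the 6 challenged mice. The log2 fold change was -1.92 (SE 0.42) for IL-33 (adjusted p = 0.0066) and -1.47 (SE 0.28) for IL-33+LM8 (adjusted p = 0.0082) against control mice. Chst8 (ENSMUSG00000060402), which sulfates N-acetylgalactosamine on glycoprotein hormones, was at 1.51, 1.87 and 1.43 FPKM in control mice, 0.668, 0.666 and 0.401 in IL-33 mice and 0.97, 0.416 and 0.737 in IL-33+LM8 mice. Its log2 fold changes against control mice were -1.47 (SE 0.23) for IL-33 (adjusted p = 0.0013) and -1.16 (SE 0.29) for IL-33+LM8 (adjusted p = 0.023). The second did not pass when control replicate 1, control replicate 2 or IL-33+LM8 replicate 3 was left out. Chst1 (ENSMUSG00000027221), a keratan sulfate sulfotransferase, was at 13.2, 12.6 and 11.7 FPKM in control mice, 5.22, 6.86 and 5.32 in IL-33 mice and 7.06, 7.16 and 7.56 in IL-33+LM8 mice. It was below control mice in both groups, by -1.11 (SE 0.13) (adjusted p = 2.6e-04) and -0.77 (SE 0.08) (adjusted p = 8.4e-04). Between IL-33+LM8 and IL-33 mice the 95% confidence intervals were -0.38 to 1.26 for Chst4, -0.50 to 1.08 for Chst8 and 0.04 to 0.61 for Chst1, and none passed the test.

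Chst15, which makes highly sulfated chondroitin, shared the Galnt18 pattern of low IL-33 mice, at 8.5, 7.83 and 8.13 FPKM in control mice, 5.42, 4.98 and 4.94 in IL-33 mice and 7.24, 8.01 and 7.45 in IL-33+LM8 mice. Its log2 fold change was -0.67 (SE 0.06) with IL-33 (adjusted p = 1.2e-04) and 0.57 (SE 0.07) for IL-33+LM8 against IL-33 mice (adjusted p = 0.0013). In the table its interval overlaps that of Fgfr2 on the same strand, so reads could be assigned to either. The chondroitin 4-O-sulfotransferases Chst11 and Chst12 rose with IL-33 by 0.56 and 0.57 (adjusted p = 7.7e-04 and 3.5e-04), and Chst12 was lower with LM8 than without it, by -0.24 (adjusted p = 0.043), and above control mice by 0.35 (adjusted p = 0.011). Chst2, Chst3, Chst5, Chst7 and Chst14 passed in no comparison.

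**Figure D3:**
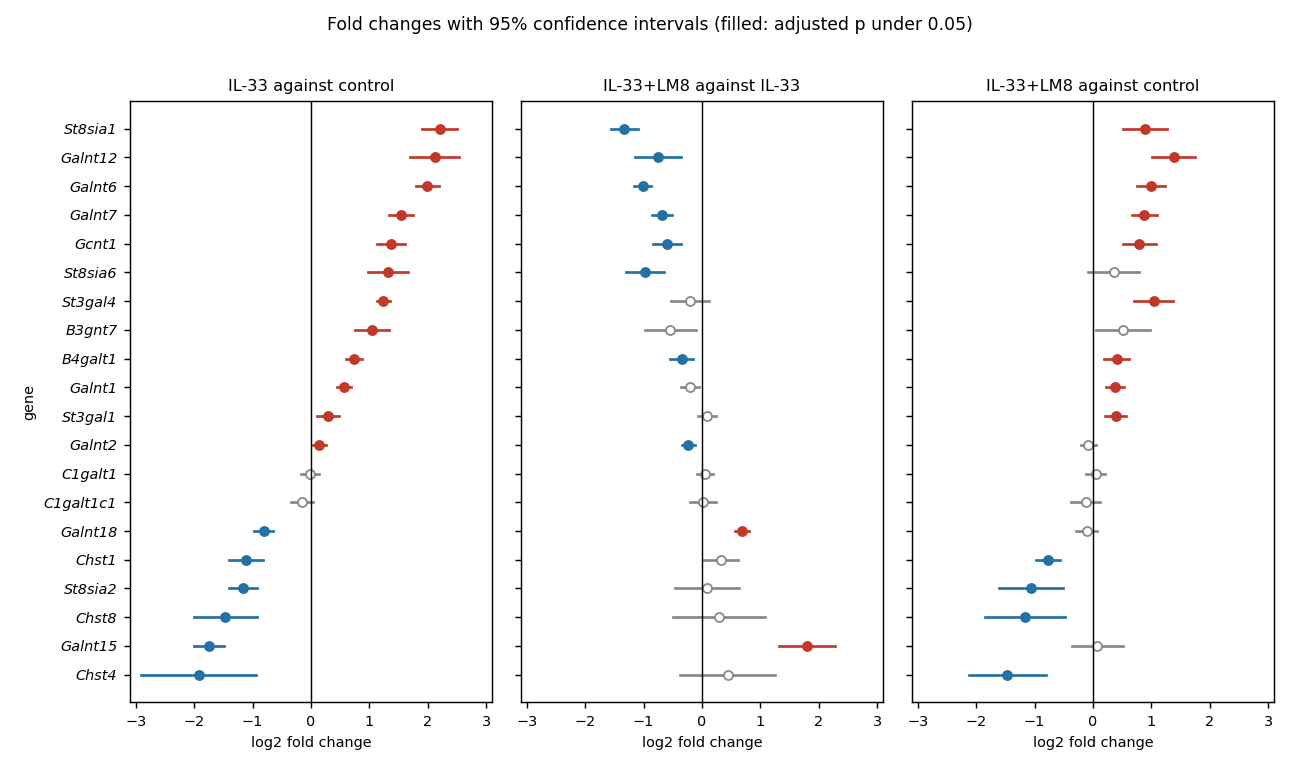
Log2 fold change (points) with its 95% confidence interval (lines) for 20 members in IL-33 against control, IL-33+LM8 against IL-33 and IL-33+LM8 against control mice; filled points have an adjusted p under 0.05. In the middle panel the largest difference is that of Galnt15, 1.80, and those of Chst4, Chst8, St8sia2 and St3gal4 have intervals that include 0.

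The 28 members below the filter were too low for the main test, and counts are given for them. These counts are not scaled to library size. IL-33+LM8 replicate 3 was the largest library, with 90607218 counts, and IL-33 replicate 3 the smallest, with 53877663. One, St8sia3os, had no more than 3 counts in any library. A fit of all genes without the filter gave adjusted p-values for the others, and the genes named next were chosen after their values were seen. Chst13, another chondroitin 4-O-sulfotransferase, had 0, 4 and 4 counts in control mice, 142, 125 and 71 in IL-33 mice and 4, 0 and 52 in IL-33+LM8 mice. The IL-33 libraries were the highest (adjusted p = 0.0018 against control mice), and of the LM8 libraries replicate 3 held the most. Gcnt4, a core 2 enzyme, had 15, 18 and 12 counts in control mice, 105, 55 and 80 in IL-33 mice and 20, 20 and 29 in IL-33+LM8 mice, and rose with IL-33 (adjusted p = 0.0035) and was lower with LM8 (adjusted p = 0.010). Fut2, the alpha-1,2-fucosyltransferase of secretions, had 89, 37 and 82 counts in control mice, 304, 295 and 169 in IL-33 mice and 137, 203 and 293 in IL-33+LM8 mice. It rose in both challenged groups (adjusted p = 0.0059 with IL-33 and 0.034 with IL-33+LM8).

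B3galt2 had 46, 120 and 102 counts in control mice, 282, 192 and 191 in IL-33 mice and 90, 141 and 206 in IL-33+LM8 mice, with an adjusted p of 0.025 for IL-33 against control mice. Its interval lies within that of Cdc73 on the opposite strand, which had 30364 counts over the 9 mice where B3galt2 had 1370. Galnt6os, on the strand opposite to Galnt6, had 9, 5 and 14, 29, 34 and 25 and 25, 12 and 37 counts in the same groups (adjusted p = 0.041). Whether the counting used strand is not given in the sources used here, so its reads and those of Galnt6, and those of B3galt2 and Cdc73, cannot be told apart. The same holds for the stretches that St3gal6 shares with Dcbld2 (1603 bases) and St3gal4 with 4930581F22Rik (2456 bases), and B3gnt8 with Bckdha (5155 bases) and B4galt2 with Slc6a9 (5939 bases). Galnt4 lies within Poc1b on the same strand (5089 bases), which had 12715 counts over the 9 mice where Galnt4 had 22387. In all, 48 members overlap another gene. B3galt5, which makes type 1 chains, had 66, 50 and 3, 101, 163 and 127 and 36, 53 and 49 counts and was lower in IL-33+LM8 than in IL-33 mice (adjusted p = 0.016). Fut1 had 4, 0 and 8 counts in control mice, 47, 8 and 18 in IL-33 mice and 0, 0 and 0 in IL-33+LM8 mice (adjusted p = 0.020 for IL-33+LM8 against IL-33 mice), all few. Of the enzymes known from goblet cells of other tissues, Gcnt3 had at most 16 counts, St6galnac1 at most 15 and the core 3 synthase B3gnt6 at most 100 in any library. St8sia3 reached 145 to 152 counts in control replicates 1 and 2 and IL-33 replicate 2 and at most 17 in the 6 others. Fut7, which makes sialyl Lewis x in leukocytes, had 44, 51 and 76 counts in control mice, 92, 93 and 81 in IL-33 mice and 51, 69 and 104 in IL-33+LM8 mice and passed in no comparison (adjusted p = 0.095, 0.37 and 0.58). Scaled to FPKM, all IL-33+LM8 mice lay below the IL-33 mice for Fut7, at 0.331, 0.441 and 0.457 against 0.556, 0.619 and 0.601. The same held for B3galt2 (at most 0.235 against at least 0.329) and Galnt6os (at most 0.196 against at least 0.209). The remaining members below the filter, Galnt9, Galnt13, Galnt14, Galnt17, St6gal2, St6galnac5, St8sia5, B3gnt4, B3galt1, B3galt9, Chst9, Chst10, Gcnt7, Fut4-ps1 and Fut9, passed in no comparison and had between 0 and 363 counts in a library.

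**Figure D4:**
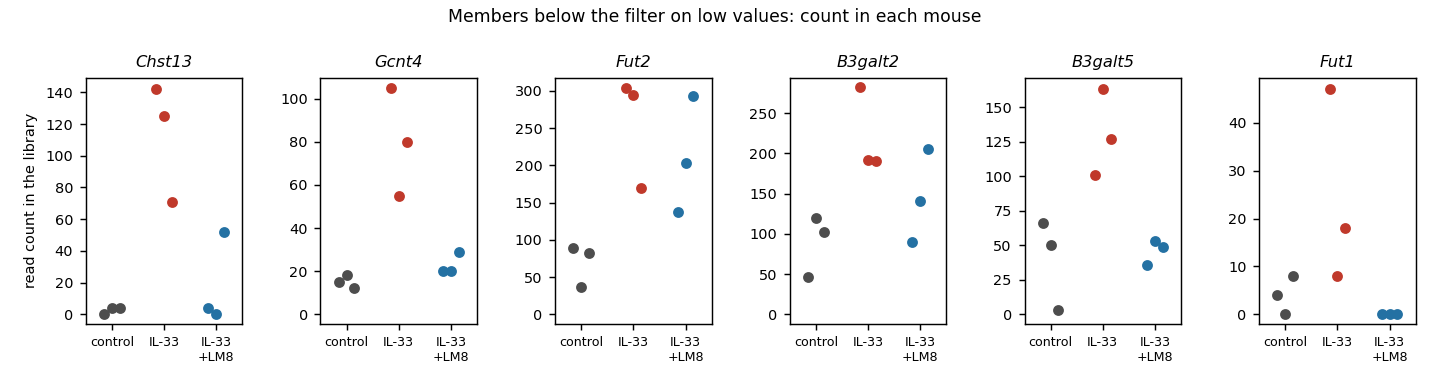
Read counts (vertical axis), not scaled to library size, of 6 members below the filter in each mouse of the 3 groups (points). The IL-33 mice hold the highest counts of Chst13, Gcnt4 and B3galt5, Fut2 is raised in both challenged groups, and Fut1 has 0 counts in all 3 IL-33+LM8 mice.

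Genes that supply the sugar and sulfate donors also changed with IL-33. Of 27 genes for nucleotide sugars, their Golgi transporters and the sulfate donor, all tested, 13 rose and 4 fell with IL-33, with a median log2 fold change of 0.26. Of all genes 27.4% rose and 27.2% fell. Nans, which makes sialic acid, was at 6.69, 6.7 and 6.18 FPKM in control mice, 13.6, 13.7 and 13.3 in IL-33 mice and 11, 14.2 and 11.4 in IL-33+LM8 mice. It rose by 1.05 (SE 0.06) with IL-33 (adjusted p = 1.1e-05). The sialic acid activating enzyme Cmas, the GDP-fucose transporter Slc35c1 and the sulfate donor transporter Slc35b2 rose by 0.61, 0.83 and 0.76 (adjusted p = 0.0039, 8.3e-05 and 2.1e-04). The fucose salvage enzymes Fcsk and Fpgt, with Gne and Papss2, were those that fell. Between IL-33+LM8 and IL-33 mice, 0 of the 27 genes were higher (12.6% of all genes) and 3 lower (13.9% of all genes), Slc35c1 and Slc35b2 among them. Against control mice 8 were higher (16.3% of all genes) and 0 lower (13.4% of all genes).

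Of 11 mucin genes, whose products carry these glycans, 5 passed the filter, Muc5ac with the largest rise among them. Of these 5, 3 rose and 1 fell with IL-33, where 27.4% of all genes rose and 27.2% fell. Muc5ac had a control mean of 0.177 FPKM and passed the filter only through the challenged mice, so passing favoured a rise. Muc5ac, the gel-forming mucin of goblet cells, was at 0.184, 0.229 and 0.116 FPKM in control mice, 11.8, 11.5 and 14.2 in IL-33 mice and 6.42, 6.06 and 5.79 in IL-33+LM8 mice. Its log2 fold change was 6.15 (SE 0.24) with IL-33 (adjusted p = 2.4e-06) and -1.04 (SE 0.09) for IL-33+LM8 against IL-33 mice (adjusted p = 3.3e-04). Muc5b, the other secreted airway mucin, and the membrane mucin Muc4 rose by 2.00 and 1.43 (adjusted p = 3.2e-06 and 4.6e-05), and Muc4 was lower with LM8 by -0.43 (adjusted p = 7.0e-04) while Muc5b did not pass (-0.10, adjusted p = 0.28). Of 6 tested goblet cell factors 5 rose with IL-33 (27.4% of all genes) and all 6 were above control mice with LM8 (16.3% of all genes). Fcgbp and Itln1 had control means of 0.38 and 0.0435 FPKM and passed the filter only through the challenged mice. Clca1 was at 1.36, 9.4 and 4.36 FPKM in control mice, 415, 387 and 428 in IL-33 mice and 481, 486 and 477 in IL-33+LM8 mice.

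Related glycosyltransferases outside the naming rule gave 6 rises and 1 fall among 14 tested genes with IL-33. Of all genes 27.4% rose and 27.2% fell, which also stands beside the other lists of this paragraph. B4galnt1, which makes the gangliosides GM2 and GD2 and can act on the product of St8sia1, was at 19.7, 22.3 and 21.9 FPKM in control mice, 42.1, 44.4 and 43.4 in IL-33 mice and 31.9, 34 and 34.8 in IL-33+LM8 mice and rose by 1.02 (SE 0.06) (adjusted p = 9.3e-06). Mgat3, which adds the bisecting sugar of N-glycans, was the one that fell, with -0.93 (SE 0.09) (adjusted p = 1.1e-04). Between IL-33+LM8 and IL-33 mice, 2 of the 14 were higher and 5 lower with LM8, where 12.6% of all genes were higher and 13.9% lower. Of 5 tested sialidases and fucosidases, which remove end sugars, 3 rose and 1 fell with IL-33. Of 7 tested selectins and selectin ligand carriers 5 rose and 1 fell with IL-33, with Selp at 0.964, 0.923 and 0.919 FPKM in control mice, 5.24, 4.75 and 4.99 in IL-33 mice and 6.5, 10.6 and 8.19 in IL-33+LM8 mice. Between IL-33+LM8 and IL-33 mice, 3 of the 7 were higher with LM8, among them Selp by 0.76 (adjusted p = 0.015), and 1 was lower.

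Markers of several cell types differed between the same groups, and their part in the results above was not tested. Lung epithelial markers were abundant in all 9 libraries. The summed FPKM of 3 club cell markers, which all fell with IL-33, was 21640 to 23704 in control mice, 8453 to 9494 in IL-33 mice and 17070 to 18455 in IL-33+LM8 mice. Most of this sum was Scgb1a1. The means in control, IL-33 and IL-33+LM8 mice were 214, 18.6 and 66.9 FPKM for Scgb3a2 and 1267, 213 and 530 for Cyp2f2. For 3 alveolar type 1 markers, which all fell, the ranges were 1084 to 1187, 539 to 574 and 843 to 901, and for 3 endothelial markers, of which 2 fell, they were 489.9 to 565, 325 to 358 and 499 to 518. Those sums were lowest in IL-33 mice, as were Galnt15, Galnt18, Gcnt2, B4galt4 and Chst15. In the other direction, 3 interstitial macrophage markers, which all rose with IL-33, summed to 56.7 to 68.0 FPKM in control mice, 406 to 441 in IL-33 mice and 170.1 to 181 in IL-33+LM8 mice. The 3 B cell markers, which all rose, summed to 19.5 to 24.1, 69.6 to 96.3 and 42.4 to 50.7. These sums were highest in IL-33 mice and intermediate with LM8, as were Galnt6, Galnt7, Galnt12, Gcnt1 and St8sia1. Not all of the 16 marker lists are given, and some of the others differed. The 3 fibroblast markers, of which 2 rose and 1 fell with IL-33, summed to 101 to 131, 244 to 286 and 107 to 115. For 3 plasma cell markers, of which 2 rose, the ranges were 59.7 to 76.6, 127 to 130 and 50.7 to 65.4. In both, the IL-33+LM8 range overlapped that of control mice. Of 3 alveolar macrophage markers 1 rose and 2 fell. Of 5 eosinophil markers 4 passed the filter and all 4 rose with IL-33. Of these, Ccr3, Prg2 and Il5ra had control means of 0.0505, 0.176 and 0.405 FPKM and passed only through the challenged mice. The 5 eosinophil markers summed to 3.82 to 4.45, 33.7 to 38.4 and 7.09 to 7.39 FPKM, with the defining marker Epx at 0 counts in all 3 control mice. Most of the control sum was Siglecf, with group means of 3.40, 7.95 and 1.93 FPKM, whereas those of Prg2 were 0.176, 19.5 and 3.94. In IL-33+LM8 against control mice, 2 of the 4 tested were higher (16.3% of all genes) and 1, Siglecf, lower (13.4% of all genes). The 5 neutrophil markers, all above IL-33 mice with LM8, had another order, with 17.2 to 23.1 FPKM in control mice, 67.3 to 86.6 in IL-33 mice and 672 to 783 in IL-33+LM8 mice. Of the 5 goblet cell markers 4 passed the filter, Muc5ac only through the challenged mice, and all 4 rose with IL-33. The 5 goblet cell markers summed to 3.30 to 12.9, 419.6 to 459 and 503 to 531 FPKM. Most of this sum was Clca1 in both challenged groups, whereas Muc5ac, of the same list, was at a lower level in IL-33+LM8 than in IL-33 mice, as given above.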

How the data were processed

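RNA-seq of lung from 9 mice, 3 per group as given by the labels, was analysed. The authors deposited, for each mouse, read counts and FPKM for every gene in 1 table. Libraries were sequenced in paired ends of 150 bp and processed by the sequencing company. The submitters' processing notes name Bowtie 0.12.2, HISAT2 2.0, StringTie 1.3.0 and the build mm10, with no role or order. The annotation and counting settings are not given in the sources used here. The intervals in the table equal those of GENCODE M21 for 4 of the 91 members, so its coordinates are not printed.

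The deposited counts were tested with edgeR 4.0.16 (R 4.3.3) by the quasi-likelihood test with TMM normalization, fitting the 6 mice of each comparison and keeping genes whose FPKM averaged 0.5 or more over 9 mice and whose counts in the 6 were above 0 (16831, 16831 and 16829 genes). Standard errors are the size of the log2 fold change over the square root of F. Totals were 53877663 to 90607218 counts per library. Low counts and floors of 3 counts cover counting error only. Between libraries of a group, the squared deviation averaged, over genes, no less than 21.9 times the variance that sampling alone gives.

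Members named by rule have an adjusted p under 0.05, a log2 fold change of at least 1 and groups that do not overlap, are among the 6 most abundant, or are C1galt1 and C1galt1c1. Other members, among them Gcnt2, B4galt4, Chst15 and Fut4 with a value for every mouse, were named after their values were seen. A gene of the donor supply list is counted but its values are not reported here. The members, the gene lists and the cell type markers were chosen with earlier results of these data known. Replicate numbers recur across groups. In IL-33+LM8 and control mice, same-numbered mice deviated together from their group means (r = 0.34, 0.36 and 0.69 across genes, which are not independent replicates). In the other comparisons they did not do so for every number. No label says that the numbers pair mice, and why these mice deviated together was not tested. Reported values for every comparison are from fits without pairing unless the block is named. Alternatives were DESeq2 1.42.0, limma 3.58.1 on log2(FPKM + 1) and log2(FPKM + 0.1), other scalings and filters, a fit of all 9 mice, the replicate block and each mouse left out.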

Additional observations from a re-analysis of the deposited data

How the results depend on the processing

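With a minimum log2 fold change of 1 in size, the members called numbered 8 higher and 5 lower for IL-33 against control, 1 and 2 for IL-33+LM8 against IL-33, and 2 and 3 for IL-33+LM8 against control mice, since the added limit takes calls away. Leaving out single mice, the count of members lower in IL-33+LM8 than in IL-33 mice, 17, ranged from 11 to 18. The other 5 counts stayed within 1.5 times their value under every alternative other than the minimum fold. With the replicate block the counts were 21 higher and 14 lower for IL-33 against control, 6 and 12 for IL-33+LM8 against IL-33, and 14 and 5 for IL-33+LM8 against control mice. For IL-33 against control, B4galt7, Fut4, Galnt2 and St3gal5 no longer passed and Chst3 newly passed. For IL-33+LM8 against IL-33, Galnt16, B4galt1, St3gal2, Chst12, Fut4 and B3galt4 no longer passed. Over all genes the block gave 4182 and 4074, 1573 and 1820, and 3388 and 3034, where the fits without it gave 4616 and 4577, 2120 and 2339, and 2741 and 2256. In IL-33+LM8 against control mice, where same-numbered mice deviated together, the block added St3gal6 (log2 fold change 0.20, adjusted p = 0.025) and changed no other member's call. In the other comparisons same-numbered mice correlated at -0.48, 0.37 and -0.30, and at -0.43, 0.23 and -0.47. Whether the numbers reflect any pairing of mice was not tested.

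Of the alternatives for the 20 members named by rule, 896 had the same direction and call, 40 fell short of the threshold, 11 newly passed it and 7 turned direction. The turns were in values near 0 that were not called, when 1 mouse was left out, and the cause was not tested. C1galt1 ranged from -0.077 to 0.028 for IL-33 against control and from -0.00693 to 0.10 for IL-33+LM8 against control mice, C1galt1c1 from -0.051 to 0.11 and St8sia2 from -0.096 to 0.32 for IL-33+LM8 against IL-33, and Galnt15 from -0.11 to 0.27 for IL-33+LM8 against control mice (log2 fold changes). Members below 0.5 FPKM are limited by their low counts.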
